A study of Homo sapiens with 3 samples.

Results

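The Hedgehog pathway was described in H9 cells, an established human embryonic stem cell line, through 9 genes. They were chosen for their place in the pathway, with earlier results of these data known. They are the ligand genes SHH and IHH, the receptor gene PTCH1, the ligand-binding inhibitor HHIP, the signal transducer SMO, the inhibitor SUFU and the transcription factors GLI1, GLI2 and GLI3. All 9 were found by Ensembl identifier among the 58051 genes of the deposited count tables. Total RNA was sequenced from 3 replicates of wild-type, untreated H9 cells, grown without feeder cells in Essential 8 Flex medium on vitronectin, after depletion of ribosomal RNA. There is 1 line and 1 condition, the labels do not say whether the replicates were separate cultures, and the spread between the 3 libraries is therefore the only error and may be technical. Totals were between 8655155 and 12024802 counted reads, and all 10 pluripotency genes examined, among them POU5F1, NANOG and SOX2, were at mean levels of 275 to 2580 TPM, a transcript abundance scaled by gene length and library total. Summed levels of the marker lists were 8.38 to 9.18 TPM for neural ectoderm (8 genes, of which NEUROG1 and NEUROG2 had no read), 26.9 to 40.2 TPM for mesoderm and node (7 genes, MSGN1 without a read), 15.9 to 22.4 TPM for endoderm and floor plate (7 genes, all with reads) and 7.55 to 11.3 TPM for trophectoderm and amnion (6 genes, CDX2 without a read). The list for fibroblasts and mesenchyme (8 genes, all with reads) reached 155 to 174 TPM, of which THY1, a gene that pluripotent cells are also known to express, held a mean of 145 TPM. In every library, at least 1 TPM was reached by 3 neural, 3 mesoderm, 5 endoderm, 2 trophectoderm and 3 fibroblast genes. Over all protein-coding genes this share was 65.1%. The highest were OLIG2 at 3.73 TPM (neural), MIXL1 at 22.3 TPM (mesoderm), FOXA2 at 7.54 TPM (endoderm) and KRT7 at 6.70 TPM (trophectoderm). Whether a few differentiated cells carry part of the reads of the pathway was not tested.

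Hedgehog ligands are secreted proteins that pattern the neural tube, the limb and the gut of the embryo. In their absence the receptor PTCH1 keeps the membrane protein SMO inactive at the primary cilium, and GLI3, together with part of GLI2, is cut to a form that represses target genes. Binding of a ligand to PTCH1 releases SMO, SUFU lets go of full-length GLI proteins, and GLI2 and GLI3 switch on targets such as GLI1, PTCH1 and HHIP. RNA levels do not show which form of a GLI protein is present.

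Promoter windows of 300 bases, from 250 bases before to 50 bases after each start site, were taken from RefSeq (GRCh38.p14) and were found for 7 of the 9 genes, in 12 windows, with GLI1 and GLI3 not among them. The windows were searched on both strands for GACCACCCA, the binding sequence known for GLI proteins. It was found in 1 of the 12 windows, 1 of 5 windows of PTCH1, and in 0.236% of the 35116 windows of all genes. In the order of the gene it reads TGGGTGGTC, the reverse complement, and it begins 172 bases before the start site. It lies at chr9:95509430-95509438, inside the annotated PTCH1 gene and outside its exons in GENCODE release 44, that is, in an intron. PTCH1 is itself one of the direct targets of GLI proteins, and no window of SHH, IHH, SMO, SUFU, HHIP or GLI2 held these letters. A match of letters is not evidence of binding. The window of PTCH1 is shown with those of SMO, the member with the highest level, and SHH, a ligand gene with almost no reads, each 5′ to 3′ on the strand of the gene, with the match in capitals.
PTCH1, chr9:95509217-95509516, minus strand: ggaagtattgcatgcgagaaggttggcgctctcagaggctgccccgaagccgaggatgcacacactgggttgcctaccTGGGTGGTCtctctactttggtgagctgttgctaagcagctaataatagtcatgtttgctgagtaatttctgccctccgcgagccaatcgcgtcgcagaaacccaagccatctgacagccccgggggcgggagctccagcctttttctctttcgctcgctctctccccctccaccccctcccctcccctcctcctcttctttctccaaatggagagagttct
SMO, chr7:129188383-129188682, plus strand: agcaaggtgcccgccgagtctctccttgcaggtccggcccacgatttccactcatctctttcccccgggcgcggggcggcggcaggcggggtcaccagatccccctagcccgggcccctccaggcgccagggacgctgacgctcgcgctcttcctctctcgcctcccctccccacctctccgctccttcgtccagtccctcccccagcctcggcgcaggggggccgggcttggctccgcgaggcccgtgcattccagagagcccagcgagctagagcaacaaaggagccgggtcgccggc
SHH, chr7:155812414-155812713, minus strand: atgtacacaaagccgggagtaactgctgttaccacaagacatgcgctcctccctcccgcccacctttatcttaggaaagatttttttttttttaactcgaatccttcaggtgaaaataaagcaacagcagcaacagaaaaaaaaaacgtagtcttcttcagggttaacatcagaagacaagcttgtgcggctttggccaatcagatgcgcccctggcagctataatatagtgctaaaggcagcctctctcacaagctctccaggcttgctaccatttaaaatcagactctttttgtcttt
The window of SMO had a GC content of 72.0% and 29 CpG dinucleotides, while that of SHH had 43.3% and 7, against a median GC content of 58.7% over all windows. A CpG-poor window was not shared by both ligand genes. The window of IHH, on the minus strand of chromosome 2 from 219060872 to 219061171, had 76.3% GC and 37 CpG dinucleotides and was above that of SMO in both, although IHH had the fewest reads of all members.

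Levels of the 9 genes covered a wide range, and PTCH1, SMO, SUFU and the GLI genes were all far above both ligand genes and HHIP. SMO had 99.7 ± 2.48 TPM (SD, n = 3) and GLI2, GLI3, PTCH1, GLI1 and SUFU followed between 37.8 and 11.7 TPM. HHIP, SHH and IHH were all below 1 TPM in the mean. At least 1 TPM in every library was reached by 6 of the 9, which is 66.7%, against 65.1% of all 19629 protein-coding genes, so that this share is near the background. The 9 genes together held 4151, 4780 and 3763 reads, or 0.0411 ± 0.0021% of all counted reads (SD, n = 3).

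**Figure D1:**
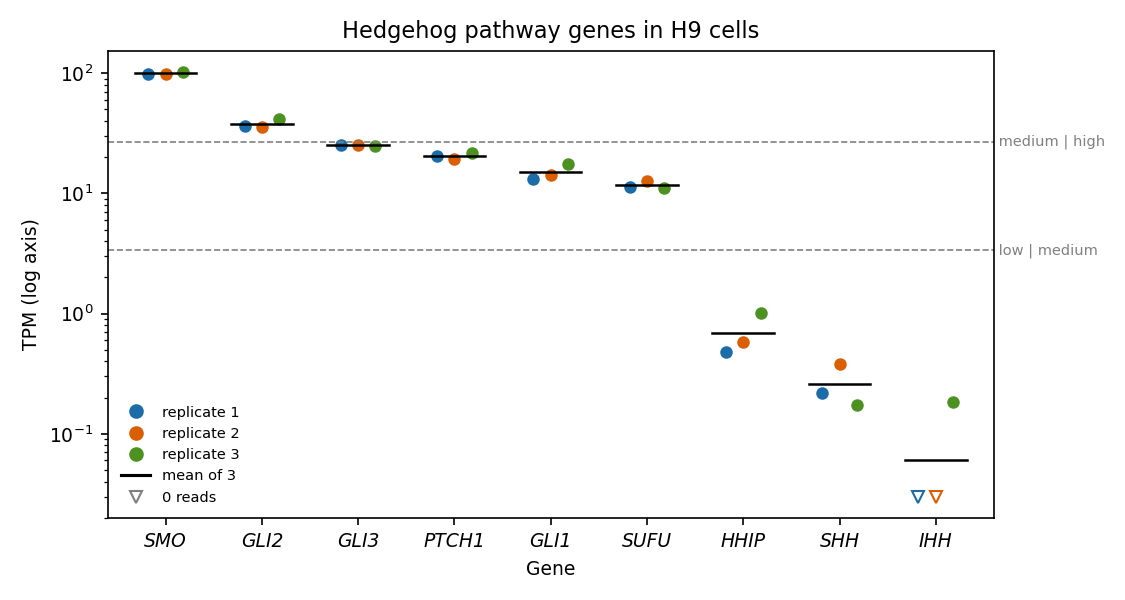
TPM of the 9 Hedgehog pathway genes (horizontal axis, ordered by mean) in each of the 3 H9 libraries, on a log axis, with points for the libraries, black bars for their mean, open triangles for libraries without a read and dashed lines at the class boundaries of 3.35 and 26.96 TPM. SMO and GLI2 lie above the upper boundary, GLI3, PTCH1, GLI1 and SUFU between both, and HHIP, SHH and IHH below the lower one.

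The ligand genes were almost silent. SHH (ENSG00000164690, chromosome 7, 155799980 to 155812463, minus strand), whose product patterns the ventral neural tube, had 3, 6 and 2 reads in replicates 1, 2 and 3. This corresponds to 0.220, 0.379 and 0.172 TPM, with a mean of 0.257 TPM and a 95% exact Poisson interval on the 11 reads that runs from 0.128 to 0.460 TPM. Only replicate 2 was above the 3 counts that a count of 0 allows. IHH (ENSG00000163501, chromosome 2, 219054424 to 219060921, minus strand), a ligand of growing cartilage and of the gut, had no read in replicates 1 and 2 and 1 read in replicate 3. The interval on this read ends at 0.338 TPM. DHH, the remaining ligand gene of the family, which acts in testis and nerve sheath, had 0, 0 and 3 reads and an upper bound of 0.281 TPM. Each of these bounds is an upper limit on the mean level that the summed reads of the libraries allow, and not on the level in a single library. Intervals and limits cover the error of counting alone, and PCR copies of 1 molecule are counted as separate reads.

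Genes that mature and release the ligands were low but mostly detected. HHAT, which attaches palmitate to the ligands, had 0.685 ± 0.265 TPM (SD, n = 3), and its relative HHATL had no read in any library. DISP1, which exports them from the cell, had 2.06 ± 0.369 TPM (SD, n = 3). Among the SCUBE genes, whose products help to release the ligands, SCUBE3 was highest, at 9.61 ± 0.741 TPM (SD, n = 3), and it led this list, before DISP3 at 3.98 TPM and SCUBE1 at 2.31 TPM. Of the 11 genes of ligands, maturation and release, 5 (45.5%) reached 1 TPM in every library, against 65.1% of all protein-coding genes. The median of the list was 0.936 TPM, against a median of 7.10 TPM over all protein-coding genes. SHH, IHH and DHH are among the 11 and were below 1 TPM in every library. Neither the share nor the median therefore describes the genes of maturation and release alone.

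PTCH1 (ENSG00000185920, chromosome 9, 95442980 to 95517057, minus strand), the receptor, had 913, 1011 and 838 reads and 20.3, 19.3 and 21.9 TPM. The mean was 20.5 ± 1.27 TPM (SD, n = 3), and replicate 3 was the highest. PTCH1 is annotated with 29 transcripts in 30 exon blocks, and 4.11% of its exon length is shared with a long noncoding RNA on the opposite strand, ENSG00000271155, which had 26, 31 and 31 reads.

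HHIP (ENSG00000164161, chromosome 4, 144646156 to 144745271, plus strand), which binds ligands at the cell surface and is itself a target of the pathway, had 15, 21 and 27 reads. The levels were 0.483, 0.581 and 1.02 TPM, with a mean of 0.694 ± 0.285 TPM (SD, n = 3). Replicate 3 had the most reads although its library was the smallest, and it was the only one above 1 TPM. HHIP shares 6.81% of its exon length with the antisense gene HHIP-AS1, which had 1, 4 and 8 reads and was likewise highest in replicate 3. Since the use of strand in counting is not given, reads of both cannot be told apart where they overlap. PTCH1 was a mean of 32.3 times as high as HHIP, with ratios of 42.1, 33.3 and 21.4.

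The coreceptors CDON, GAS1 and BOC, which help PTCH1 to bind ligands, each reached 1 TPM in every library. CDON had 8.03 ± 0.301 TPM (SD, n = 3), GAS1 had 6.62 ± 0.222 TPM and BOC had 5.61 ± 1.22 TPM. CDON and BOC are closely related membrane proteins, and CDON was above BOC in each library, by 1.56, 1.73 and 1.13 times. LRP2, an endocytic receptor that takes part in SHH signaling in the forebrain, was low, at 0.423 TPM. GPC3, a glypican that binds Hedgehog ligands away from PTCH1, reached 50.7 ± 4.28 TPM (SD, n = 3). Together with SMO and PTCH1 it formed the top of the 9 genes for receptors, coreceptors and ligand binding. Of these, 6 (66.7%) reached 1 TPM in every library, near the 65.1% of all protein-coding genes.

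SMO (ENSG00000128602, chromosome 7, 129188633 to 129213545, plus strand), the transducer that PTCH1 holds in check, had 1225, 1403 and 1080 reads. Its levels of 99.1, 97.6 and 102.4 TPM were close to each other and above those of 91.7% of protein-coding genes. With counts divided by the summed length of all exons, SMO exceeded PTCH1 by 4.88, 5.05 and 4.69 times, a mean of 4.87 ± 0.180 (SD, n = 3). With the longest transcript as the length the gap was smaller, at 89.2 TPM for SMO and 25.1 TPM for PTCH1. An antisense long noncoding RNA gene, ENSG00000243230, covers 2.72% of its exon length and had 64, 100 and 51 reads. All 14 genes listed for the regulation of SMO and of its neighborhood in the cilium reached 1 TPM in every library, with a median of 12.9 TPM. Of all protein-coding genes 65.1% did, with a median of 7.10 TPM. GNAS, which encodes a G protein subunit that raises cyclic AMP and so favors GLI repressor, was highest, at 159 TPM, followed by the SMO kinase gene GRK2 at 44.6 TPM and the beta-arrestin gene ARRB2 at 40.8 TPM. The lowest were EFCAB7 and IQCE, whose products anchor the EvC complex, at 2.79 and 6.42 TPM. GPR161, the ciliary receptor that holds the pathway off, had 16.1 ± 0.816 TPM (SD, n = 3).

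SUFU (ENSG00000107882, chromosome 10, 102503972 to 102633535, plus strand), which binds GLI proteins and keeps them out of the nucleus, had 202, 265 and 168 reads. Its levels were 11.3, 12.7 and 11 TPM, with a mean of 11.7 ± 0.927 TPM (SD, n = 3), and replicate 2 was the highest. KIF7, the ciliary kinesin that acts with SUFU on GLI proteins, had 22.3 ± 1.10 TPM and was a mean of 1.93 times as high as SUFU. Of the exon length of KIF7, 10.8% lies opposite TICRR, which had 1344, 1565 and 1139 reads. Without the strand setting, reads of both cannot be told apart there, so that the level of KIF7 is uncertain. All 22 genes listed for the regulation and processing of GLI proteins reached 1 TPM in every library, against 65.1% of protein-coding genes. The median of the list was 32.2 TPM, against 7.10 TPM over all protein-coding genes. Of the 22, 15 were in the high class described below, against 28.8% of protein-coding genes. The highest were CUL1, the scaffold of the ubiquitin ligase that sends GLI3 to be cut, at 155 TPM, HDAC1, which deacetylates GLI1, at 90.1 TPM, and the casein kinase gene CSNK1A1, at 74.1 TPM. The lowest was ITCH at 10.9 TPM, followed by SUFU itself. The kinases that mark GLI3 for cutting were all present, with PRKACA at 29.5 TPM, PRKACB at 31.8 TPM, GSK3B at 29.4 TPM and GSK3A at 32.7 TPM, and BTRC, which recognizes the marked protein, had 35.5 TPM. These genes act in many pathways, and CSNK1A1 shares 49.3% of its exon length with a long noncoding RNA gene on its own strand.

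GLI3 (ENSG00000106571, chromosome 7, 41960949 to 42264100, minus strand), the main repressor of the pathway, had 908, 1050 and 756 reads. These were 25.3, 25.1 and 24.7 TPM, with a mean of 25.0 ± 0.311 TPM (SD, n = 3), and no library stood out. No exon of GLI3 overlaps an exon of another annotated gene. Its gene spans 303.2 kb, the longest of the 9, with 26 exon blocks and 13 annotated transcripts. GLI2 (ENSG00000074047, chromosome 2, 120735623 to 120992653, plus strand), the main activator, had 730, 829 and 712 reads. Its levels of 36.3, 35.5 and 41.6 TPM gave a mean of 37.8 ± 3.29 TPM (SD, n = 3), and replicate 3 was above the other 2. GLI1 (ENSG00000111087, chromosome 12, 57459785 to 57472268, plus strand), an activator that is itself a target of the pathway, had 155, 195 and 179 reads. Its levels were 13.1, 14.1 and 17.7 TPM, with a mean of 14.96 ± 2.42 TPM (SD, n = 3), again highest in replicate 3. Of the summed TPM of the 3 GLI genes, GLI2 held 48.5 ± 1.03%, GLI3 32.3 ± 2.50% and GLI1 19.2 ± 1.81% (SD, n = 3). All 3 were thus transcribed in the same libraries in which the ligand genes were near 0, and GLI3 was the lowest in share in replicate 3, at 29.4% against 33.9% and 33.6%.

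The order of GLI2 and GLI3 turned on the gene length used. By reads, GLI3 was above GLI2 in every library. With counts divided by the summed length of all exons, which is 13799 bp for GLI3 and 7720 bp for GLI2, GLI2 was a mean of 1.51 ± 0.150 times as high (SD, n = 3). With the longest transcript as the length, 8405 bp for GLI3 and 7136 bp for GLI2, both were at the same level, 30.9 ± 0.284 TPM for GLI3 and 30.8 ± 2.78 TPM for GLI2 (SD, n = 3), and their ranges overlapped. The share of GLI3 among the GLI genes then rose to 41.6%, and GLI3 passed into the high class. Which transcripts the cells make is not shown by counts per gene, so GLI2 and GLI3 cannot be ranked against each other here. For GLI1 and SUFU the ranges also overlapped with the longest transcript as the length, at 11.3 to 15.3 and 11.4 to 13.1 TPM.

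**Figure D2:**
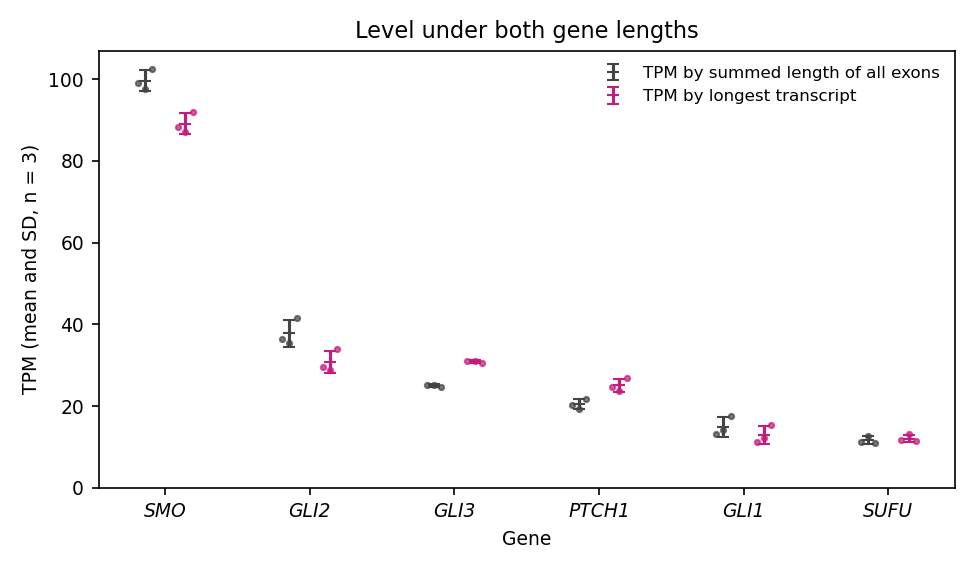
TPM of the 6 members with the highest levels (horizontal axis), with counts divided by the summed length of all exons (grey) or by the length of the longest transcript (magenta). Points are the 3 libraries, bars the mean and SD, and GLI2 and GLI3 lie apart in grey, at 37.8 and 25.0 TPM, and together in magenta, at 30.8 and 30.9 TPM.

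With the summed exon length, the 9 genes fell into the order SMO, GLI2, GLI3, PTCH1, GLI1, SUFU, HHIP, SHH and IHH. Of the 8 pairs of neighbors in this order, 7 had ranges over the 3 libraries that did not overlap. The exception was SHH and IHH, whose levels could not be told apart, at 0.172 to 0.379 and 0 to 0.182 TPM. The closest pairs with ranges apart were GLI3 and PTCH1, with ratios of 1.25, 1.30 and 1.13, and GLI1 and SUFU, with ratios of 1.16, 1.11 and 1.61. Among the pairs with reads in every library, the widest step was from SUFU to HHIP, with ratios of 23.4, 21.9 and 10.8, and it separated 6 genes at 11 TPM or more from 3 at 1.02 TPM or less in every library. Genes of a library are not independent, and 3 libraries of 1 condition allow no test between genes.

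The study sorted genes into nonexpressed genes, below 0.01 TPM, and 3 quantiles of the others, and these classes were rebuilt here over protein-coding genes from the mean TPM, with boundaries at 3.35 and 26.96 TPM. SMO and GLI2 were in the high class, as were 28.8% of protein-coding genes. PTCH1, GLI1, GLI3 and SUFU were in the medium class, and HHIP, SHH and IHH in the low class. The methods of the study took only start sites of protein-coding genes, but do not state which genes set these quantiles. With all genes classified, PTCH1, GLI1, GLI3 and SUFU moved to the high class, which then held 6 members, and 0 were medium. In all, 6 of 9 were in the high or medium class, against 57.6% of protein-coding genes. With each library classified alone, 8 of the 9 genes kept their class in all 3. IHH did not: it was nonexpressed in replicates 1 and 2 and low in replicate 3, where a single read decided it. GLI3 lay just below the upper boundary, at the percentile of 69.7 among protein-coding genes.

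The spread between the libraries was compared with counting error by a chi-square test of each gene's 3 counts against the library totals. With Benjamini-Hochberg adjustment over the 18451 genes with at least 20 reads, 10.9% of them differed between libraries by more than counting error. Of the 7 members with enough reads, 1 did, GLI2 (adjusted p = 0.0132), and it was higher in replicate 3 by 0.24 on the log2 scale. GLI1 (adjusted p = 0.0587) and PTCH1 (adjusted p = 0.0717) did not pass the threshold of 0.05, and their log2 ratios of replicate 3 to the other libraries were 0.41 and 0.17. The reads of GLI3 followed the library totals very closely, with a CPM (reads scaled by the library total) of 87.4 in replicate 1 and 87.4 in replicate 3 and a chi-square of 0.000131 per degree of freedom (adjusted p = 1.0). Only 0.0108% of the genes tested had a chi-square as small. This closeness held for the unscaled library totals. For GLI3 the chi-square per degree of freedom was 0.0638 with TMM library sizes and 0.272 with DESeq2 size factors. It was 0.0422 after a GC correction. SMO (adjusted p = 0.511), SUFU (adjusted p = 0.587) and HHIP (adjusted p = 0.149) also did not pass. The call of GLI2 was lost with DESeq2 size factors (adjusted p = 0.0604), without replicate 3 (adjusted p = 0.943) and after a correction for the GC content of transcripts (adjusted p = 0.889). PTCH1 passed after that correction (adjusted p = 0.0379) and without replicate 1 (adjusted p = 0.0323). GLI1 did not pass after the correction (adjusted p = 0.35). It passed without replicate 2 (adjusted p = 0.0307) and among genes with at least 100 reads (adjusted p = 0.0449), all in the same chi-square test. Over 9946 genes, the log2 ratio of replicate 3 to the others had a Spearman's rho of 0.407 with transcript GC content, across genes that share libraries and are not independent. The longest transcript has 61.7% GC for SMO, 61.6% for GLI2, 59.3% for GLI1, 56.7% for SUFU, 51.5% for GLI3, 48.7% for PTCH1 and 36.9% for HHIP. In the same order, the log2 ratios of replicate 3 were 0.09, 0.24, 0.41, -0.09, 0.0001, 0.17 and 0.96. The ratio of HHIP rests on 63 reads in all. What sets the ratios of the members was not tested.

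**Figure D3:**
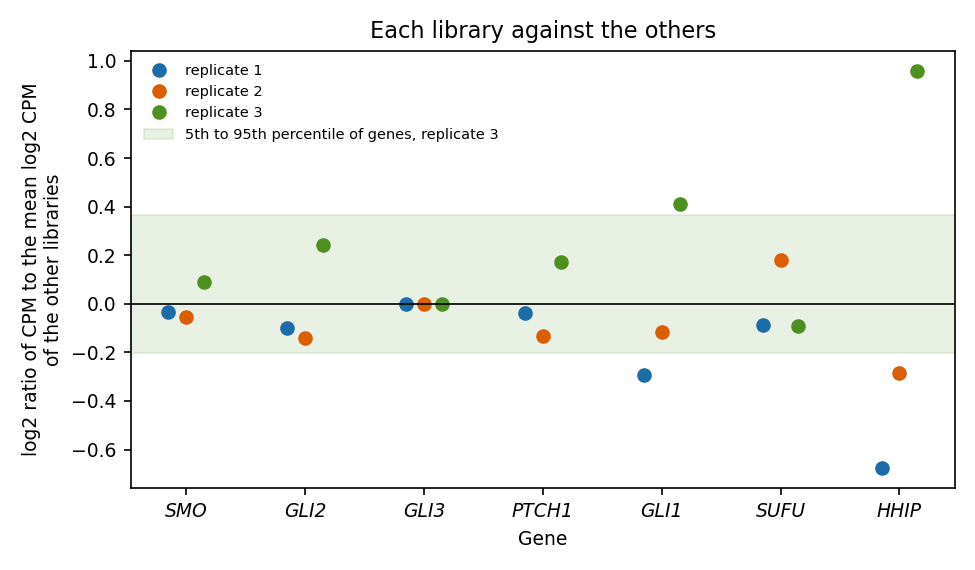
Log2 ratio of each library to the mean of the other libraries (vertical axis, from CPM) for the 7 members with at least 20 reads (horizontal axis), with the range between the 5th and 95th percentiles of genes in replicate 3 shaded. All 3 points of GLI3 lie close to 0, while replicate 3 is highest for SMO, PTCH1, GLI2, GLI1 and HHIP, at 0.09, 0.17, 0.24, 0.41 and 0.96. The shaded range, from -0.201 to 0.366, is of genes with at least 100 reads in each library. HHIP, with 63 reads in all, is not among them, and GLI2 lies inside the range.

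GLI proteins belong to a wider family of zinc finger factors with the GLIS and ZIC proteins, which share the form of their DNA-binding fingers. ZIC2 was the highest of those described here, at 368 ± 34.5 TPM (SD, n = 3), with 3045, 3398 and 2971 reads. It was a mean of 14.7 times as high as GLI3. ZIC5 had 138 ± 6.83 TPM and ZIC1 had 102 ± 11.1 TPM, while ZIC4 was at 4.48 ± 0.649 TPM (SD, n = 3). ZIC2 is a known regulator in pluripotent cells. GLIS2 had 22.7 ± 5.94 TPM, a mean between those of GLI3 and GLI1. In replicate 3 it was above GLI3, at 29.4 against 24.7 TPM, and their ranges overlapped. GLIS1 and GLIS3 had 2 and 20 reads in all. In the chi-square test, ZIC1, ZIC2, ZIC5 and GLIS2 differed between libraries by more than counting error, as did 10.9% of all genes tested. Their adjusted p was 2.12e-09, 6.94e-13, 0.0353 and 1.51e-07, and all 4 were higher in replicate 3, by 0.15 to 0.63 on the log2 scale. ZIC4 (adjusted p = 0.346) and GLIS3 (adjusted p = 0.936) did not pass, nor did GLI1 and GLI3. Whether the calls of ZIC and GLIS genes hold with other size factors or a GC correction was not examined. ZIC1 and ZIC4 overlap by 176 bp of exon on opposite strands, and 23.5% of the exon length of GLIS2 lies opposite a long noncoding RNA gene.

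**Figure D4:**
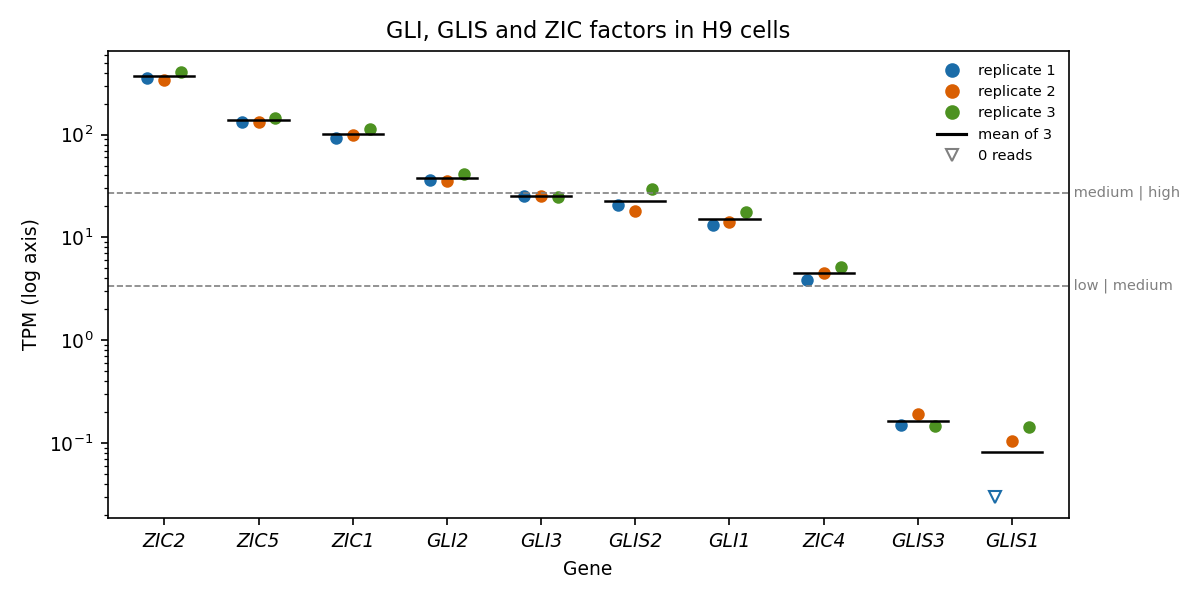
TPM of GLI, GLIS and ZIC genes (horizontal axis, ordered by mean) in the 3 H9 libraries, on a log axis, with black bars for the mean, an open triangle for a library without a read and dashed lines at 3.35 and 26.96 TPM. ZIC2, ZIC5 and ZIC1 lie above the 3 GLI genes in every library, and GLIS3 and GLIS1 lie below 0.2 TPM.

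The genes known as transcriptional targets of the pathway did not share a level. Of 21 such genes, 11 reached 1 TPM in every library, with a median of 2.60 TPM. This is 52.4%, against 65.1% of all protein-coding genes, whose median was 7.10 TPM. The highest were the cyclin genes CCND1 at 464 TPM and CCND2 at 363 TPM and the mitotic factor gene FOXM1 at 175 TPM, all of which have many other regulators in dividing cells. Among the targets most specific to the pathway, GLI1 and PTCH1 had means of 14.96 and 20.5 TPM, while HHIP had a mean of 0.694 TPM. PTCH1 was above GLI1 in each library, by 1.55, 1.37 and 1.24 times with the summed exon length. With the longest transcript as the length the gap was wider, at means of 25.1 TPM for PTCH1 and 12.9 TPM for GLI1. HAND2 and NKX2-1, a limb and heart factor and a forebrain and lung factor, had no read. The ventral neural tube factors did not share a level. NKX2-2 and NKX6-1 had 2 and 6 reads in all, while OLIG2 had 36, 40 and 21 reads and 3.73 ± 0.725 TPM (SD, n = 3). FOXA2, a factor of the floor plate and of endoderm, had 7.54 ± 1.71 TPM (SD, n = 3). Without a condition in which the pathway is blocked or stimulated, these levels do not show whether Hedgehog signaling contributes to them.

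GLI processing depends on the primary cilium, and its genes were broadly present. Of 26 genes for cilium assembly and intraflagellar transport, 25 reached 1 TPM in every library, with a median of 10.1 TPM. KIF3B, a subunit of the motor that carries cargo into the cilium, was highest, at 59.3 TPM, followed by IFT52 at 46.7 TPM and BBS4 at 41.9 TPM. BBS1 and TCTN1 were lowest, at 1.48 and 1.83 TPM. BBS1, with 10, 26 and 33 reads, shares 54.0% of its exon length with another gene on its strand, so that its level is uncertain. Over all 110 listed genes, 90 reached 1 TPM in every library, which is 81.8%, against 65.1% of protein-coding genes. The lists were made from knowledge of the pathway, in which broadly expressed kinases and cilium genes are frequent.

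**Figure D5:**
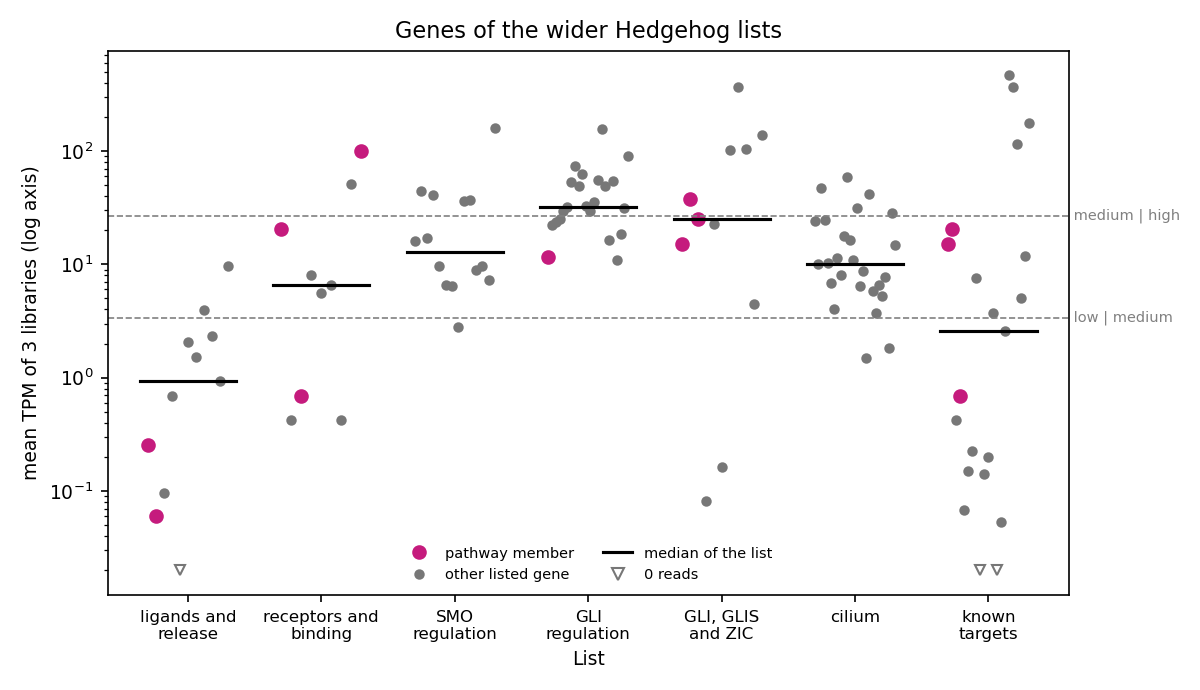
Mean TPM over 3 libraries of the genes on each list of the wider pathway (horizontal axis), on a log axis, with members in magenta, other genes in grey, black bars for the median of a list, open triangles for genes without a read and dashed lines at 3.35 and 26.96 TPM. The median rises from 0.936 TPM for ligands and their release to 32.2 TPM for GLI regulation, and SUFU is the second lowest gene of that list.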

How the data were processed

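Reads of rRNA-depleted total RNA were trimmed with Trim Galore (v0.4.4) and aligned to GRCh38 with TopHat2 (v2.1.1), per the labels and the methods of the study. The deposited values are raw counts of reads per gene, which the authors did not normalize, for 58051 Ensembl genes in each of 3 libraries. Which tool counted the reads, on which annotation and whether by strand, is not given in the sources used here. Identifiers were joined to GENCODE release 44 (GRCh38), and 98.1% matched. TPM was computed from these counts over the merged exons of a gene, not taken from Cufflinks (v2.2.1), which the study used. Totals were 10390984, 12024802 and 8655155 counts. The 9 members, the gene lists and the markers were chosen with earlier results of these data known. Members were named in full, and of each list the 3 highest, the 2 lowest and paralogs of members, some of which are not reported here. Kinases, coreceptors and other listed genes outside this rule (HHAT, DISP1, GPR161, KIF7, PRKACA, PRKACB, GSK3A, GSK3B, BTRC, CDON, GAS1, BOC, FOXA2, NKX2-2, NKX6-1 and OLIG2) and markers such as THY1 were chosen after their values were seen. No gene was named for a likeness to a member, since 3 libraries of 1 condition hold no pattern. The spread test was a chi-square over all genes with at least 20 reads, Benjamini-Hochberg adjusted. It and the classes were tested on simulated counts. Alternatives were another gene length, scalings by edgeR 4.0.16 and DESeq2 1.42.0, other TPM totals, thresholds, thinned counts (the median of 11 draws), a GC correction in 20 bins and leaving out each replicate. Python 3.11.15, R 4.3.3, numpy 2.4.6, pandas 2.3.3, scipy 1.17.1 and matplotlib 3.10.9 were used. With 1 condition no groups were compared.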

Additional observations from a re-analysis of the deposited data

How the results depend on the processing

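No member's mean TPM moved by more than its SD under TMM or DESeq2 rescaling. The TPM summed over the 9 members, 210.7, was 201.8 with the longest transcript as gene length, 219.5 without mitochondrial genes and 260.8 with protein-coding genes alone in the total. With the longest transcript, the share of GLI3 rose from 32.3% to 41.6% and the log2 ratio of GLI2 over GLI3 went from 0.59 to -0.0075. With nonexpressed genes set below 1 TPM, 1 member was high, 0 low and 3 nonexpressed, and below 0.1 TPM 1 was nonexpressed, as with counts thinned to 10%. With all genes classified, 6 members were high and 0 medium. With 1 replicate left out, 0 to 1 members were nonexpressed (1 without replicate 3, IHH). For the spread between libraries, 1178 genes (6.38%) were called after the GC correction, against 2016 (10.9%) in the main test. GLI2 was the member called in the main test. With DESeq2 size factors 0 members were called, against 12.2% of all genes tested. Among genes with at least 100 reads, 2 members were called (GLI1 and GLI2), against 15.9% of all genes tested. The chi-square of GLI1 was 4.99 per degree of freedom in both sets, and only the genes tested differed. After the GC correction PTCH1 took the place of GLI2 (adjusted p = 0.0379 by the chi-square test). With 1 replicate left out, 227 to 1786 genes (1.33% to 10.7%) and 0 to 2 members were called, the lowest without replicate 3. Depth limits SHH, IHH and HHIP most. No paired analysis was possible because all libraries are of 1 condition.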
